A study of Mus musculus with 8 samples.

Results

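The genes described here drive and carry out the division of cells: 46 genes of DNA replication, of the cyclin-dependent kinases and of mitosis, taken by name. Probes were found by gene symbol on the array, which gave 72 probes for 40 of the 46 genes, out of 25697 probes and 16590 named genes in all. For Gins2, Ccnb1, Cdk4, Mki67, Aurkb and Tacc3 no probe was named, and these were not analysed here. Goblet cells, which make the mucus of the gut, had been sorted by flow cytometry from intestinal epithelium of C57Bl/6 mice, as cells without CD45 and CD24 that carried cytokeratin 18 (CK18) and bound the lectin UEA-I. The groups were small intestine and colon, with 4 samples and 4 arrays each, and the series set the gene expression of one segment beside that of the other. All samples shared strain, sort and array type, no treatment or genetic change was named, and age and sex were not given. The labels do not say whether samples came from separate animals, so each p-value rests on the variation among these arrays, part or all of which may be technical.

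A dividing cell first loads the Mcm helicase onto DNA at replication origins, with the help of Cdc6 and Cdt1, and then copies the DNA in S phase with nucleotides made by enzymes such as ribonucleotide reductase. Cyclins switch on their kinases in turn, and in mitosis the spindle motors, the kinases Aurka, Aurkb and Plk1 and the checkpoint proteins part the chromosomes. In the gut epithelium, division is confined to the crypts, where stem cells and their transit-amplifying progeny lie. Mature goblet cells are held to be post-mitotic, while goblet cell precursors in the crypt can still divide. Transcription of the replication genes is known to be driven by E2F factors. Many mitosis genes are controlled through a short element near their start, the cell cycle genes homology region (CHR), which is bound by the DREAM and MuvB complexes.

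The promoters of the members are shown for the elements just named. RefSeq windows of GRCm38.p6, from 250 bases before to 50 bases after the gene start, were at hand for 38 of the 46 genes, some with more than 1 start. They were searched on both strands for E2F sites (TTCCCGC or TTCGCGC or TTGGCGC or TTGCCGC) and for CHR elements (TTTGAA or TTCGAA). An E2F site stood in 11 of 16 windows of replication members (68.8%) and in 3 of 19 windows of mitosis members (15.8%), against 9.57% of all 32851 windows. A CHR element stood in 16 of 19 windows of mitosis members (84.2%) and in 3 of 16 of replication members (18.8%), against 19.2% of all windows. Within 50 bases of the gene start, a CHR element began in 15 of 19 mitosis windows (78.9%), 1 of 16 replication windows and 5.31% of all windows. The CCAAT box (CCAAT, either strand), often found beside the CHR, was in 15 of 19 mitosis windows, 12 of 16 replication windows and 37.4% of all. A match describes these letters in these windows and nothing about binding.

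The windows of Mcm6 (chr1:128359656-128359955, minus strand) and Rrm1 (chr7:102441445-102441744, plus strand) are shown as examples of replication members, with the E2F matches in capitals. Mcm6 held 5 matches, of which the pairs at -109 and -106 and at -46 and -43 overlapped, and Rrm1 held 1, at -67, counted from the gene start as 0.
Mcm6: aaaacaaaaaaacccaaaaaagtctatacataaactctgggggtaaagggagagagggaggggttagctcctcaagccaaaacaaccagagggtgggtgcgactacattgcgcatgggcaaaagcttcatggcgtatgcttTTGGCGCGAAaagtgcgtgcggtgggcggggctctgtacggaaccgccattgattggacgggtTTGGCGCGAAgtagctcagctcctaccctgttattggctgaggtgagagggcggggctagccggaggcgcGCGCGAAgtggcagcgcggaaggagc
Rrm1: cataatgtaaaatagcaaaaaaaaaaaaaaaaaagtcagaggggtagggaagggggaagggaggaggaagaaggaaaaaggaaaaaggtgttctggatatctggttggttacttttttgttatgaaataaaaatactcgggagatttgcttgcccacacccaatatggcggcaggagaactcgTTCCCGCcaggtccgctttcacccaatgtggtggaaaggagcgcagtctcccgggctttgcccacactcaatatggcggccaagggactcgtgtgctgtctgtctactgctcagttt

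Cdca8 (chr4:124936868-124937167, minus strand) and Top2a (chr11:99024140-99024439, minus strand) are shown as examples of mitosis members, with the CHR matches in capitals. Cdca8 held 1 match, at 13 bases after the start. Top2a held 4, at -179, -140, -120 and -23.
Cdca8: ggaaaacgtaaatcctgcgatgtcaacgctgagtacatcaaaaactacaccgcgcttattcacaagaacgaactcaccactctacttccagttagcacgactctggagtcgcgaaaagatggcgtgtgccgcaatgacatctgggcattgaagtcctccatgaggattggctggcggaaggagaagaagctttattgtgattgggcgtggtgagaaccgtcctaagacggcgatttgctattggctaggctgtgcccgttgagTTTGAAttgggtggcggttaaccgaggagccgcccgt
Top2a: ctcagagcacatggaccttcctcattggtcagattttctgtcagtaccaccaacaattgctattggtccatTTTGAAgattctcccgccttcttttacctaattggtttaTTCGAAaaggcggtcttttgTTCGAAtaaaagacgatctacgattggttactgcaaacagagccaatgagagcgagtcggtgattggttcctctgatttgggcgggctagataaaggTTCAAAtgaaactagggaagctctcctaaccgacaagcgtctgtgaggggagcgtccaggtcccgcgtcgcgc

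Mean signal per array ran from 386 to 558 units. Between 12447 and 13922 probes exceeded background on an array, by a detection p below 0.05, fewest on colon array 3 and small-intestinal array 1 (12475). Of 10 goblet cell markers, the 8 with a probe were above background on all 8 arrays, and their summed normalised intensity was 35213 to 36628 in small intestine and 39220 to 44952 in colon. RNA typical of other cells was present as well. The sum of 10 stem cell markers was 5780 to 9044 in small intestine and 2047 to 2562 in colon. Without Olfm4, the remaining 9 gave 1817 to 4191 and 1957 to 2534, which overlap. That of 6 Paneth cell markers was 67655 to 79373 and 1402 to 11738, that of 8 enterocyte markers 35239 to 49045 and 3690 to 10421, and that of 10 lymphocyte markers 2256 to 3738 and 405 to 1120. Colonocyte markers (7) went the other way, from 2215 to 2692 in small intestine and from 9601 to 14305 in colon, and sums of 8 enteroendocrine markers overlapped, at 5313 to 9465 and 3394 to 5808. Colon arrays 1 and 4 had the highest Paneth and enterocyte sums in colon. Of these markers, Tnfrsf19 (stem cells), Cd79a, Ms4a1 and Cd7 (lymphocytes) were above background on no array. In bulk RNA, fewer cells of a type and less RNA per cell cannot be told apart.

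Cell cycle transcripts were readily measured in the sorted cells of both segments. Of the 40 genes with a probe, 38 had at least 1 probe above background on at least 4 of 8 arrays and were tested, and for 34 the brightest tested probe was above background on every array. Ccne1 and Ccnb2, the cyclins E1 and B2, were dimmer: Ccne1 was above background on 1 array of each segment, and Ccnb2 on 2 small-intestinal arrays and 1 colon array. Of the 72 probes, 8 were not tested, and 64 were. Levels are log2 normalised intensities, and a difference is the colon mean less the small-intestinal mean. Each gene is given by its brightest tested probe. P-values are limma's, adjusted over all probes tested (Benjamini-Hochberg), and a gene is called where this is below 0.05.

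The members leaned towards small intestine, and few single genes passed the test. Of the 38 tested genes, 4 were called higher in small intestine (Tk1, Rrm1, Ccnd1 and Cdca8), 0 higher in colon, and 34 did not pass. The share called higher in small intestine, 10.5%, lay near the background, since 9.3% of all 9080 genes tested were called in that direction, and 13.1% were called higher in colon. At an unadjusted limma p below 0.05, 13 of the 38 (34.2%) had the higher level in small intestine against 14.8% of all genes, and 0 had it in colon against 20% of all genes. The difference was below 0 for 32 of the 38 genes and for 4038 of all 9080, with a median of -0.34 against 0.07 over all genes tested. The values of the segments did not overlap, with small intestine higher, for 7 genes (Mcm6, Cdc6, Pcna, Rrm1, Ccnd1, Top2a and Cdca8; 18.4% against a background of 10.4%) and, with colon higher, for 0 (background 15.7%). Counted by probe, 13 of 64 (20.3%) were called higher in small intestine against 9.83% of all 13618 probes, and 0 higher in colon against 11.6%. The 13 probes belonged to 9 genes, some with several probes, which are not independent. Of the 13, 6 were not above background on every colon array and passed the filter through small intestine. Among the 48 member probes above background on all 8 arrays, 7 (14.6%) were called higher in small intestine against 8.12% of all such probes. Without colon arrays 1 and 4, which held the most Paneth and enterocyte RNA of the colon arrays, 0 of the 38 were called (limma), against 5.81% of all genes called higher in small intestine in that fit, and 29 of the 38 differences were below 0.

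**Figure D1:**
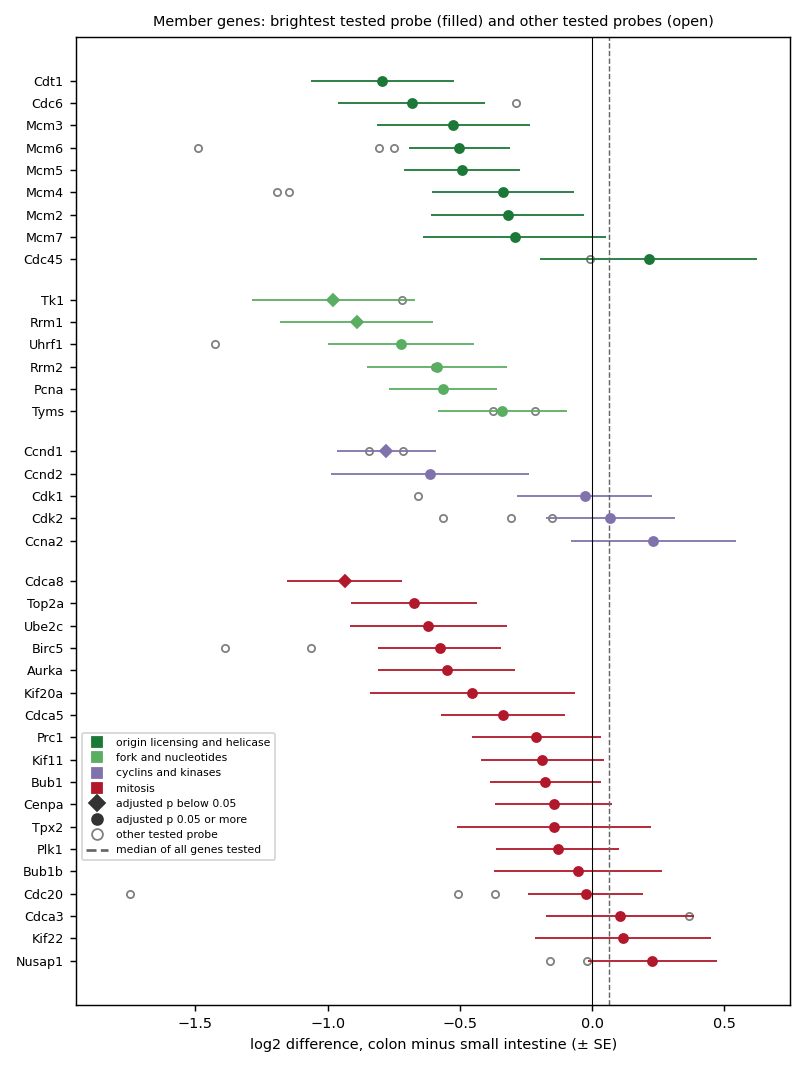
Log2 difference between colon and small intestine for the 38 tested member genes, by role. Filled symbols give the brightest tested probe with its standard error, diamonds those with an adjusted p below 0.05, open circles the other tested probes of the gene, and the dashed line the median of all genes tested (0.07). Most symbols lie left of 0, and the replication genes lie further left (median -0.52) than the mitosis genes (median -0.18).

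The replication members had a lower median difference than the mitosis members. Over 15 tested replication members (9 of origin licensing and the helicase, 6 of the fork and of nucleotide supply) the median difference was -0.52, and 14 of 15 were below 0. Over 18 tested mitosis members the median was -0.18, and 15 of 18 were below 0, against 4038 of all 9080 genes. Among 5 tested cyclins and kinases it was -0.03. These are descriptions of chosen lists, and the gap between replication and mitosis members was not tested. When arrays were not scaled to one another, the median of all genes moved from 0.07 to -0.14, the replication median was -0.74 and the mitosis median -0.40. Of all probes called in that setting, colon was higher for 744 and small intestine for 1051, against 1580 and 1339 with scaling.

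Of the 9 tested licensing and helicase genes, 0 were called by limma, 4 (44.4%) had an unadjusted p below 0.05 with small intestine higher, against 14.8% of all genes, and 8 differences were below 0. Mcm6, a subunit of the Mcm2-7 helicase ring, was at 11.42, 11.81, 11.38 and 11.32 on small-intestinal arrays 1 to 4 and at 10.78, 10.89, 11.15 and 11.11 on colon arrays 1 to 4. Every colon array lay below every small-intestinal array, with a difference of -0.50 (SE 0.19, adjusted p = 0.0882). Its adjusted p ran from 0.0224 to 0.311 over 18 alternatives, and it was called without background correction, with a variance prior that follows intensity, and on the mean of its probes. Cdt1, which loads the helicase, had the largest difference of the licensing genes. Its mean was 8.61 ± 0.47 in small intestine, and in colon it was 7.81 ± 0.35 (SD, 4 arrays in each group, as for all means below; difference -0.79, SE 0.27, adjusted p = 0.0608). Cdt1 passed in 3 of 18 alternatives, with an offset of 50 (adjusted p = 0.0485), on the authors' processed values (0.0461) and without colon array 3 (0.0423). Cdc6, its partner in loading, was at 6.91, 6.91, 6.74 and 6.87 in small intestine and at 5.34, 6.15, 6.50 and 6.71 in colon. The segments did not overlap, with colon array 4 just below small-intestinal array 3, and the test was not passed (difference -0.68, SE 0.28, adjusted p = 0.110). On colon array 1 this probe was below background, and the other tested probe of Cdc6 differed by -0.29.

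The other helicase subunits were not called either. Mcm3 stood at 7.11 ± 0.58 and 6.59 ± 0.30 (difference -0.52, SE 0.29, adjusted p = 0.234). Mcm5 differed by -0.49 (SE 0.22, adjusted p = 0.142), Mcm4 by -0.34 (SE 0.27, adjusted p = 0.419) and Mcm2 by -0.32 (SE 0.29, adjusted p = 0.481). Mcm7 stood at 7.36 ± 0.81 and 7.07 ± 0.15 (difference -0.29, SE 0.35, adjusted p = 0.597), with small-intestinal arrays 1 and 2 at 8.12 and 7.97 and arrays 3 and 4 at 6.91 and 6.45, while the colon arrays lay from 6.91 to 7.24. Cdc45, which joins the helicase when origins fire, was the only licensing gene above 0 by its brightest probe, at 6.18 ± 0.62 and 6.39 ± 0.80 (difference 0.21, SE 0.41, adjusted p = 0.756), and its other tested probe differed by -0.01.

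All 6 tested genes of the replication fork and of nucleotide supply were below 0, and 2 were called (33.3%, against 9.3% of all genes). Tk1, the thymidine kinase of the salvage pathway, was at 7.51, 8.32, 8.05 and 8.17 in small intestine and at 6.50, 7.46, 6.51 and 7.67 in colon. Colon array 4 lay above small-intestinal array 1, so that the segments overlapped (difference -0.98, SE 0.31, adjusted p = 0.0455). Rrm1, the large subunit of ribonucleotide reductase, was at 9.88, 11.01, 9.93 and 10.32 in small intestine and at 9.59, 9.62, 8.83 and 9.54 in colon. The segments did not overlap, with colon array 3 apart from the other colon arrays (difference -0.89, SE 0.29, adjusted p = 0.0494). Both adjusted p-values lay just under the threshold. That of Tk1 was lost without small-intestinal array 2, 3 or 4 or colon array 1 or 3 (adjusted p from 0.0221 to 0.121 over the 8 omissions), and that of Rrm1 without any array but small-intestinal array 1 (0.0285 to 0.121). Both were lost without scaling between arrays (0.116 and 0.133), on the authors' processed values and without a filter on dim probes, and that of Tk1 also on the mean of its probes (0.0635).

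Pcna, the sliding clamp of the fork, was at 9.44, 10.04, 9.32 and 9.49 in small intestine and at 9.09, 9.12, 8.80 and 9.02 in colon. All colon arrays lay below all small-intestinal arrays, without a call (difference -0.56, SE 0.21, adjusted p = 0.0769). Uhrf1, which brings maintenance methylation to newly copied DNA, differed by -0.72 (SE 0.27, adjusted p = 0.0886). Rrm2, the small subunit of the reductase, stood at 9.80 ± 0.50 and 9.22 ± 0.26 (difference -0.59, SE 0.26, adjusted p = 0.145), and its other tested probe differed by -0.59 too. Tyms, thymidylate synthase, had the smallest difference of this group, at 7.97 ± 0.44 and 7.63 ± 0.23 (difference -0.34, SE 0.24, adjusted p = 0.364).

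**Figure D2:**
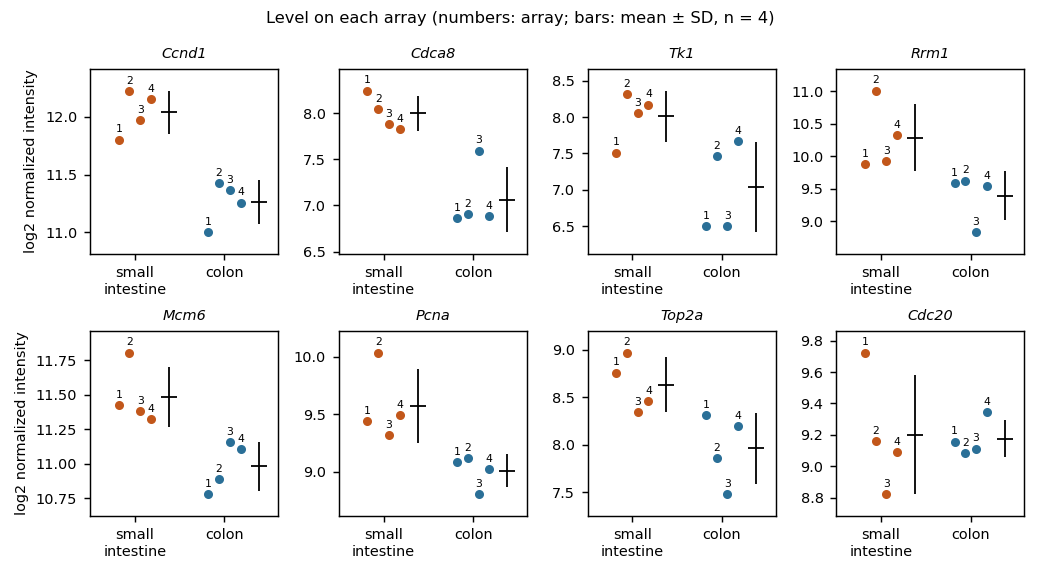
Log2 normalised intensity of 8 member genes by their brightest tested probe, with 1 point per array, its array number, and the mean ± SD of the 4 arrays of each segment. The segments do not overlap for Ccnd1, Cdca8, Rrm1, Mcm6, Pcna and Top2a, they overlap for Tk1, and the colon arrays of Cdc20 lie inside the range of the small-intestinal arrays.

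Of 5 tested cyclins and kinases, Ccnd1 was called (20%, against 9.3% of all genes called higher in small intestine) and the other 4 were not. Ccnd1, cyclin D1, which starts the cycle in response to growth signals and is a known target of Wnt signalling, was at 11.80, 12.22, 11.98 and 12.16 in small intestine and at 10.998, 11.43, 11.36 and 11.26 in colon. The segments did not overlap (difference -0.78, SE 0.19, adjusted p = 0.0125), which is a level 1.71-fold higher in small intestine. Both other probes of Ccnd1 were called too, with differences of -0.84 and -0.72. The last was above background on 1 of 4 colon arrays and passed the filter through small intestine, so that its call is no separate support. For the brightest probe the call held on leaving out any 1 array (adjusted p from 0.00824 to 0.0454). It was lost without scaling between arrays (0.0809) and without colon arrays 1 and 4 together (0.141). Ccnd2, cyclin D2, stood at 10.28 ± 0.67 and 9.67 ± 0.61 (difference -0.61, SE 0.37, adjusted p = 0.283). Small-intestinal array 1 was low for Ccnd2, at 9.28 against 10.54 to 10.75 on the other 3 arrays, and without it the gene passed (difference -0.94, adjusted p = 0.0459).

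Cdk1, the kinase of mitotic entry, stood at 6.59 ± 0.15 and 6.57 ± 0.52 (difference -0.03, SE 0.26, adjusted p = 0.955), and its other tested probe differed by -0.66 (SE 0.31, adjusted p = 0.167). Without small-intestinal array 1 that second probe became the brighter one and passed (difference -0.89, adjusted p = 0.0415). Cdk2, the S phase kinase, was at 10.61 ± 0.43 and 10.68 ± 0.25 (difference 0.07, SE 0.24, adjusted p = 0.874), and its 3 other tested probes differed by -0.56 to -0.15. Ccna2, cyclin A2, the partner of both kinases, was at 8.33 ± 0.52 and 8.56 ± 0.50 (difference 0.23, SE 0.31, adjusted p = 0.646), the highest difference among the 38 genes. For these 3 genes the ranges of the segments overlapped.

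Among the 18 tested mitosis genes, 1 was called (5.56%, against 9.3% of all genes called higher in small intestine). Cdca8, borealin, a subunit of the chromosomal passenger complex that corrects the attachment of chromosomes to the spindle, was at 8.24, 8.04, 7.88 and 7.82 in small intestine and at 6.86, 6.91, 7.59 and 6.89 in colon. The segments did not overlap, and colon array 3 stood above the other colon arrays (difference -0.94, SE 0.22, adjusted p = 0.0106, a level 1.91-fold higher in small intestine). The call held on leaving out any 1 array (adjusted p from 0.00253 to 0.0364) and was lost without colon arrays 1 and 4 together (0.139). Birc5, survivin, a further subunit of that complex, stood at 9.37 ± 0.31 and 8.79 ± 0.32 by its brightest probe (difference -0.58, SE 0.23, adjusted p = 0.105). Top2a, the topoisomerase that untangles sister DNA, was at 8.76, 8.97, 8.34 and 8.46 in small intestine and at 8.31, 7.86, 7.47 and 8.19 in colon. The segments did not overlap, with colon array 1 just below small-intestinal array 3 (difference -0.67, SE 0.24, adjusted p = 0.0679).

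Ube2c, the ubiquitin-conjugating enzyme that works with the anaphase-promoting complex, stood at 7.38 ± 0.25 and 6.76 ± 0.62 (difference -0.62, SE 0.30, adjusted p = 0.169). On colon array 3 Ube2c was at 7.60, as high as the small-intestinal arrays, against 6.13 to 6.77 on the others, and without that array it passed (difference -0.90, adjusted p = 0.0230). Aurka, a kinase of spindle poles, differed by -0.55 (SE 0.26, adjusted p = 0.162). The other 13 mitosis genes lay between -0.45 (Kif20a, a motor of cell cleavage) and 0.23 (Nusap1, a spindle protein), and none of them passed. Among them were Plk1, a master kinase of mitosis, at -0.13 (SE 0.23), Cenpa, the histone of centromeres, at -0.14 (SE 0.22), and the motor Kif11, which pushes spindle poles apart, at -0.19 (SE 0.23). The checkpoint kinases Bub1 and Bub1b were at -0.18 (SE 0.21) and -0.05 (SE 0.32). Bub1 was above background on 2 of 4 colon arrays, and Kif20a on 1 of 4 colon arrays and 3 of 4 small-intestinal arrays. Cdc20, the activator of the anaphase-promoting complex, stood at 9.20 ± 0.38 and 9.18 ± 0.12 (difference -0.02, SE 0.22, adjusted p = 0.953).

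Arrays of one segment differed among themselves. The median deviation of the 15 replication genes from their own means over all arrays was 0.42, 0.75, -0.03 and -0.03 on small-intestinal arrays 1 to 4 and -0.48, -0.30, -0.07 and -0.08 on colon arrays 1 to 4. The corresponding medians of the 18 mitosis genes were 0.39, 0.38, 0.01 and -0.10 in small intestine and -0.42, -0.20, 0.16 and -0.04 in colon. For both lists the highest values were those of small-intestinal arrays 1 and 2 and the lowest those of colon arrays 1 and 2, and small-intestinal arrays 3 and 4 and colon array 4 lay nearer to 0. For the replication genes every colon array lay below every small-intestinal array, and for the mitosis genes the segments overlapped. The medians of all genes tested stayed between -0.08 and 0.09. The replication median less the mitosis median was 0.037, 0.363, -0.037 and 0.067 on small-intestinal arrays 1 to 4. On colon arrays 1 to 4 it was -0.066, -0.101, -0.228 and -0.035, so that the segments overlapped for this gap.

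**Figure D3:**
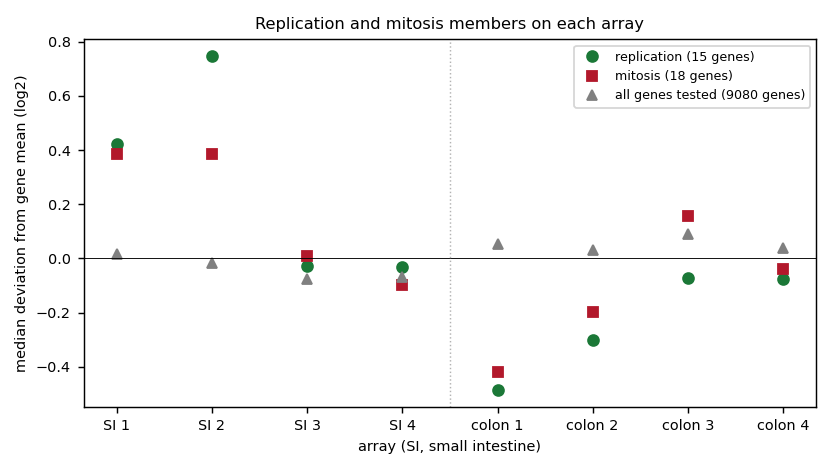
Median deviation of replication genes, mitosis genes and all genes tested from each gene's mean over the 8 arrays, in log2 units, with 1 point per array. Small-intestinal arrays 1 and 2 stand highest for both lists (0.42 and 0.75 for replication) and colon array 1 lowest (-0.48), while all genes tested stay near 0.

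Probes of 1 gene differed in their calls. Of 15 members with more than 1 tested probe, 6 had some probes called and others not (Mcm4, Mcm6, Uhrf1, Tk1, Cdc20 and Birc5). In 10 of these 15 the brightest probe had the highest difference, that is the least excess in small intestine, and in 3 the lowest. Over all 2508 genes with more than 1 tested probe, the brightest was highest in 54.6% and lowest in 32.4%. For Mcm4 the brightest probe was not called, as given above. Its dimmer probes stood at 6.45 ± 0.40 and 6.26 ± 0.39 in small intestine, above background on all of its 4 arrays, and exceeded background on 2 and 1 of the 4 colon arrays. They passed the filter through small intestine, so that their calls are no separate support, and their colon levels have no measured value on the remaining arrays.

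Uhrf1 had a second probe at 6.25 ± 0.56 in small intestine that was above background on no colon array (4.82 ± 0.36), a level at least 1.70-fold higher in small intestine. It too passed the filter through small intestine alone, so that its call is no separate support. Both dimmer probes of Birc5 were called, one with a difference of -1.06 (SE 0.29, adjusted p = 0.0221) and the dimmest with -1.39 (SE 0.41, adjusted p = 0.0344). For Cdc20, whose brightest probe differed by -0.02, a further probe was at 7.03, 7.99, 8.18 and 7.60 in small intestine and 5.54, 6.80, 4.64 and 6.83 in colon (difference -1.75, SE 0.47, adjusted p = 0.0211). A probe of Mcm6 differed by -1.49 (SE 0.48, adjusted p = 0.0483). Both of these were above background on 3 of 4 colon arrays, colon array 3 being the exception, so that their differences rest in part on a value below background. With the mean of all tested probes in place of the brightest, 7 members were called higher in small intestine, namely Birc5, Ccnd1, Cdca8, Mcm4, Mcm6, Rrm1 and Uhrf1, against 10.4% of all genes. Those of Mcm4, Mcm6 and Uhrf1 draw on the probes just described.

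**Figure D4:**
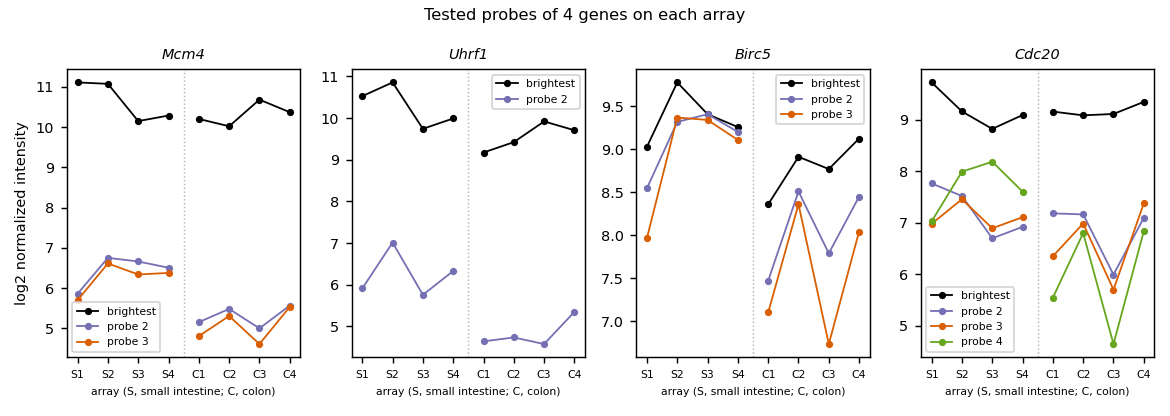
Log2 normalised intensity of every tested probe of Mcm4, Uhrf1, Birc5 and Cdc20 on the 8 arrays; lines only join the values of 1 probe within a segment. In each of these 4 genes the brightest probe (black) has a smaller difference between segments (-0.72 to -0.02) than every dimmer probe, and small-intestinal array 1 and colon array 3 are the lowest of their segments for the dimmest probe of Birc5. The dimmer probes of Mcm4 are above background on 2 and 1 of the 4 colon arrays, and that of Uhrf1 on 0.

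Other cell cycle genes were read in 4 lists. Of 32 tested further replication genes, 3 were higher in small intestine, 0 higher in colon (against 13.1% of all genes), and 29 did not pass (median -0.21). Chek1, the kinase of the S phase checkpoint, differed by -1.20 (SE 0.29, adjusted p = 0.0133), Mcm10, a helicase factor, by -0.95 (SE 0.27, adjusted p = 0.0259), and Rpa2, which coats single-stranded DNA, by -0.81 (SE 0.26, adjusted p = 0.0463). Of 29 tested further mitosis genes 0 were called by limma in either direction, against 9.3% of all genes called higher in small intestine and 13.1% higher in colon. Their median was 0.02 and their range -0.62 to 0.70. At an unadjusted p below 0.05, 7 of the 32 further replication genes (21.9%) and 1 of the 29 further mitosis genes (3.45%) had the higher level in small intestine, against 14.8% of all genes, and 0 of either list had it in colon, against 20%. The difference between these lists was not tested. The share of further replication genes called (9.38%) lay near the background of 9.3%.

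Among 23 tested regulators of entry into the cycle, 2 were called in each direction and 19 were not (median -0.22). These are 8.7% in each direction, no more than the 9.3% of all genes called higher in small intestine and the 13.1% called higher in colon. Ccnd3, cyclin D3, rose from 8.84 ± 0.23 in small intestine to 10.12 ± 0.33 in colon (difference 1.28, SE 0.22, adjusted p = 0.00159), opposite to Ccnd1. On arrays 1 to 4, Ccnd3 was at 9.19, 8.70, 8.70 and 8.79 in small intestine and at 9.75, 10.03, 10.54 and 10.15 in colon, without overlap. E2f5, an E2F factor that acts with the pocket proteins mainly as a repressor, exceeded its small-intestinal level in colon by 1.20 (SE 0.21, adjusted p = 0.00208). E2f3, an activating E2F, and Tfdp1, the dimer partner of E2F factors, were lower in colon. E2f3 differed by -0.76 (SE 0.23, adjusted p = 0.0374), and for Tfdp1 the difference was -0.77 (SE 0.21, adjusted p = 0.0211). Ccnd3 and E2f5 were called under all 18 alternatives.

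Of 17 tested inhibitors of the cycle and genes of growth arrest, colon was higher for 4, small intestine for 2, and 11 were not called (median 0.26). The shares were 23.5% against 13.1% of all genes for colon and 11.8% against 9.3% for small intestine. Cdkn1c, the kinase inhibitor p57, was at 5.69, 6.73, 6.75 and 6.59 in small intestine and at 7.93, 7.39, 7.74 and 7.51 in colon, without overlap (difference 1.20, SE 0.26, adjusted p = 0.00721). Btg3, an antiproliferative gene, had a colon level higher by 1.76 (SE 0.45, adjusted p = 0.0173). Its segments overlapped, with small-intestinal array 1 at 7.51 and colon array 2 at 7.48. Small-intestinal array 3 did not exceed background for Btg3 (5.04), so that its difference rests in part on a value below background. Klf4, a factor of goblet cell differentiation that restrains division, had a colon level higher by 0.84 (SE 0.27, adjusted p = 0.0450). For Btg1, related to Btg3, the colon level was higher by 0.79 (SE 0.19, adjusted p = 0.0117). The stress genes Gadd45g and Gadd45a were lower in colon. Gadd45g differed by -1.70 (SE 0.31, adjusted p = 0.00250), and Gadd45a had a difference of -0.62 (SE 0.18, adjusted p = 0.0339). Single arrays ended several of these calls: Btg3 without small-intestinal array 4 (0.0537), Mcm10 without small-intestinal array 2 or colon array 1, 2 or 3 (up to 0.0688), and Tfdp1 without small-intestinal array 2 or 3 or colon array 3 or 4 (up to 0.0650). E2f3 lost its call without small-intestinal array 2, 3 or 4 or colon array 3 or 4 (up to 0.104), Gadd45a without small-intestinal array 3 or 4 or colon array 2, 3 or 4 (up to 0.0949), Rpa2 without any but small-intestinal array 3 or colon array 4 (up to 0.121), and Klf4 without any but colon array 3 or 4 (up to 0.114). Those of Chek1, Ccnd3, E2f5, Cdkn1c and Gadd45g held without any 1 array. When colon arrays 1 and 4 were left out together, Ccnd3, E2f5 and Gadd45g kept their calls. Chek1 (0.132) and Cdkn1c (0.0744) lost theirs in that fit. So did Mcm10 (0.0626), Rpa2 (0.110), Tfdp1 (0.126), E2f3 (0.117), Btg3 (0.0908), Klf4 (0.135) and Gadd45a (0.0869). With 0 inhibitors called for colon in that fit, Btg1 was not called either. The processing ended calls too. Without scaling between arrays Cdkn1c (0.162), Klf4 (0.221), Rpa2 (0.0837), Tfdp1 (0.0803), E2f3 (0.0782) and Gadd45a (0.0820) were not called. There, 1 inhibitor was called higher in colon, namely Btg3 (0.0210), so that Btg1 lost its call too. On the authors' processed values Cdkn1c (0.0592), Klf4 (0.0517) and E2f3 (0.0551) were not, on the mean of a gene's probes Klf4 (0.106), Rpa2 (0.140) and Gadd45a (0.0539) were not, and without a filter on dim probes Btg3 (0.0602), Mcm10 (0.0505), Klf4 (0.0800), Rpa2 (0.0774) and E2f3 (0.0505) were not. E2f3 also missed the threshold without background correction (0.0865), and E2f3 and Rpa2 with a variance prior that follows intensity (0.0507 and 0.0510).

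**Figure D5:**
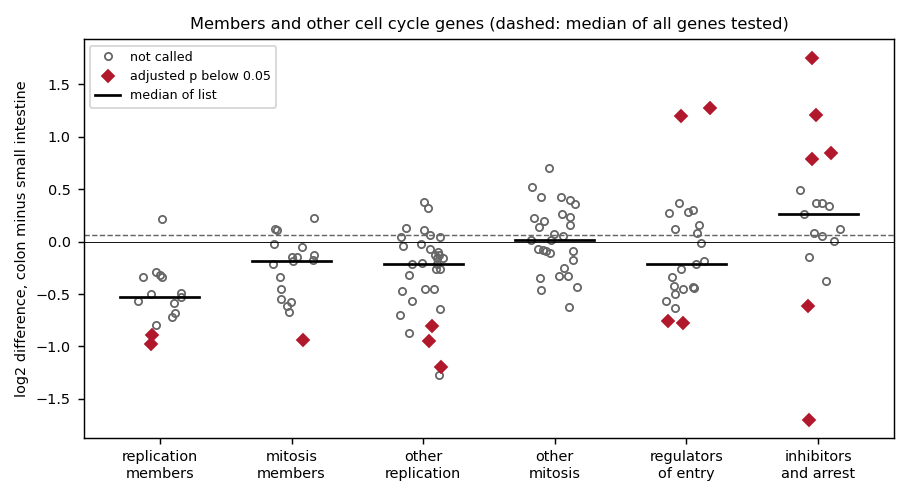
Log2 difference between colon and small intestine for each tested gene of the replication and mitosis members and of 4 further lists, with the list median (bar) and genes with an adjusted p below 0.05 (diamonds). The medians of the replication lists lie below 0 (-0.52 and -0.21), with single genes above 0 in both. Further mitosis genes lie around 0 (median 0.02), and the inhibitor list has called genes on both sides.

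Stem cell markers of the crypt base were set beside the members. Of 9 tested, small intestine was higher for 3 (Olfm4, Axin2 and Cdca7) and colon for 1 (Prom1). The shares were 33.3% against 9.3% of all genes for small intestine and 11.1% against 13.1% for colon. Cdca7 lay just under the threshold (limma, adjusted p = 0.0481), and its segments overlapped. Axin2, a Wnt target, was at 9.09 ± 0.72 in small intestine and 7.46 ± 0.44 in colon (difference -1.63, SE 0.35, adjusted p = 0.00685), and Olfm4 was at 11.93 ± 0.24 and 6.26 ± 1.72, above background on 2 of 4 colon arrays. Lgr5, the receptor that marks dividing crypt base stem cells, was not called, at 6.87 ± 0.38 and 6.85 ± 0.60 (difference -0.02, SE 0.31, adjusted p = 0.980). The median deviation of the stem cell markers was -0.40, 0.67, 0.27 and 0.24 on small-intestinal arrays 1 to 4 and -0.22, -0.27, -0.34 and -0.43 on colon arrays 1 to 4. As for the replication genes, array 2 was the highest and every colon array lay below 0, while array 1 was low for the stem cell markers and high for the replication genes. The part of stem, Paneth and enterocyte RNA in the members' differences was not tested.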

How the data were processed

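Biotinylated cRNA from 8 samples had been put on Illumina mouse arrays, as the labels state. The deposited table holds mean signal intensity on a linear scale, without background subtraction or scaling, and a detection p-value for 25697 probes, per the file headers and the values. In 1 cell the deposited number was corrupted and was restored from the straight line between that array's signals and the authors' processed intensities, which served as an alternative (values under 16 set to 16). How the authors subtracted and scaled these is not given in the sources used here.

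Signals were corrected with normexp from the detection p-values (offset 16), quantile-normalised and put on the log2 scale with limma 3.58.1 in R 4.3.3. Probes above background (detection p below 0.05) on at least 4 of 8 arrays, 13618, were tested with limma (lmFit, eBayes), two-sided, with Benjamini-Hochberg adjustment over all of them. The model was tested on simulated data. Names came from the platform annotation, updated through RefSeq by gene ID for 23962 probes and by accession for 9, with 7 kept as they stood and 1719 unnamed. Beyond ranking the probes of a gene, describing dim ones and summing markers, no probe's level was set against that of another probe. The number of arrays limits the precision. A lower bound was the brighter group's mean against the other's mean of, per array, the higher of the lowest value above background and the probe's own.

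Members, lists and tests were chosen with earlier results of these data known. Genes given in full were Mki67, Pcna, Mcm2, Top2a, Cdk1, Ccnb1, Ccnd1, Ccnd2, Cdk4 and Birc5 where measured, the 4 largest and 2 smallest differences of each role, and up to 3 called genes in each direction of each further list. Others were named after their values were seen. Counts and figures were made with matplotlib 3.10.9, numpy 2.4.6 and pandas 2.3.3 under Python 3.11.15. Same-numbered arrays of the segments correlated by -0.18 to 0.25 in their deviations, so the numbers were not taken as pairs.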

Additional observations from a re-analysis of the deposited data

Results flagged for a closer look

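In 5 of 128 groups of 4 arrays (64 tested member probes in both segments) 1 array stood far from the other 3 by Dixon's criterion, and chance alone flags about 1 group in 20. Rrm1 was at 8.83 on colon array 3 against 9.54 to 9.62 on the others, and Cdca8 was at 7.59 on that array against 6.86 to 6.91. A dimmer probe of Cdc20 was at 5.99 on colon array 3 against 7.10 to 7.18. On small-intestinal array 1, Ccnd2 was at 9.28 against 10.54 to 10.75 and Kif20a at 5.01, a value below background, against 5.93 to 6.11. All 5 lie on the array of each segment with the fewest probes above background. The part of array quality in these values was not tested.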

How the results depend on the processing

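Over 18 alternatives, 377 of 430 values of the 24 members given in full kept their direction and their side of the threshold, 24 lost a call, 13 gained one and 16 changed sign. Only the 4 called members could lose a call. Rrm1 lost its call in 11 of the 18, Tk1 in 10, Ccnd1 in 2 and Cdca8 in 1. No member was called higher in colon under any of the 18 (limma). The count of members called higher in small intestine, 4, was 7 without background correction, 1 without scaling between arrays, 2 without a filter on dim probes, 7 on the mean of a gene's probes, 0 without colon replicates 1 and 4 together, and 2 to 6 on leaving out 1 array. In the same order, the shares of all genes called in that direction were 9.70%, 7.40%, 4.71%, 10.4%, 5.81% and 6.88% to 12.2%. Probes called in the whole table, 2919, were 1795 without scaling and 1748 without colon replicates 1 and 4. The replication and mitosis medians stayed below 0 under all 18 (on leaving out 1 array, -0.65 to -0.39 and -0.28 to -0.08). Signs changed only for genes near 0. Cdk1 went to 0.0029 without background correction, and Cdc45 to -0.0077 without scaling. Cdk2 went to -0.049 without scaling and -0.24 on the mean of its probes, and Bub1b to 0.38 without colon replicates 1 and 4. On leaving out 1 array, Cdk1 ran from -0.89 to 0.23, Cdk2 from -0.11 to 0.19, Cdc45 from -0.0056 to 0.58, Bub1b from -0.32 to 0.12 and Cdc20 from -0.15 to 0.15. The cause of these shifts was not tested. With the replicate number as a block, 2627 probes and the same 4 members were called; the numbers are not known to pair samples. No slide was named, so that no fit by slide was run. Alternatives for the further cell cycle genes were added after seeing the data. The lowest log2 level above background was 5.28 to 5.61 per array, and values below it carry little order.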

Other observations

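Small-intestinal array 1 and colon array 3 shared a pattern that cut across the segments. Of 64 tested member probes, 9 (14.1%) were lower by over 0.5 log2 on both of these arrays than on the other 3 arrays of their segment, and 8 (12.5%) were higher on both. Over all 13618 probes tested these shares were 8.50% and 5.84%. Among probes above background on all 8 arrays, 5 of 48 member probes (10.4%) were lower on both and 6 (12.5%) higher on both, against 7.06% and 6.01% of all 9979 such probes. The deviations of these arrays from their segment means correlated by 0.36 across probes, which are not independent. That value was not particular to them: over all 16 pairs of a small-intestinal and a colon array the correlations ran from -0.56 to 0.36, and small-intestinal array 4 and colon array 2 also gave 0.36. The brightest probe of Mcm4 was higher on these arrays by 0.61 and 0.48, the latter short of 0.5, and a dimmer probe of Mcm6 by 0.74 and 0.89. Other probes of the same genes went the other way. The dimmer probes of Mcm4 differed by -0.78 and -0.40 and by -0.74 and -0.61, and a further probe of Mcm6 by -0.72 and -1.92. The remaining probes of Mcm6 lay between -0.08 and 0.27. The pattern was noticed in these data and its cause was not tested.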
